A study of Homo sapiens with 12 samples.

Results

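The 47 genes listed here encode the machinery of mitosis: the spindle assembly checkpoint, the kinetochore, the chromosomal passenger complex, mitotic kinesins, CDK1 with its cyclins and regulators, and proteins of the spindle and of cytokinesis. They were selected by gene symbol, with 1 probe set per gene, and 46 of the 47 were measured by a probe set that names a single gene, among 18404 such genes on the array. CENPA shares its probe set with another gene and is named only. RNA came from A673, a human cell line derived from an Ewing sarcoma, whose driver is the chimaeric transcription factor EWS-FLI1. It was hybridized to 12 Affymetrix HuGene 1.0 ST arrays, 2 in each of 6 groups. The groups were cells infected with a lentivirus carrying a FLI1 shRNA, cells infected with a lacZ shRNA directed at a bacterial gene, cells left untreated at time 0, and cells kept for 24 h with DMSO, with 5 nM actinomycin D or with 50 nM actinomycin D. Actinomycin D intercalates into DNA and blocks transcription. The labels place the shRNA harvest at 48 h, whereas the protocol gives 24 h with virus and then 48 h of puromycin selection, which both shRNA groups received. A single shRNA was used for each target, in a single line. The methods describe duplicate treatments for the DMSO and 5 nM groups. For the other groups the sources used here do not say whether the arrays came from separate cultures. The main fit shares 1 estimate of spread over all 6 groups. Its p-values, those of 5 nM against DMSO included, thus reflect array-to-array spread, possibly of technical origin.

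At the entry to mitosis, CDK1 bound to cyclin A or cyclin B phosphorylates many proteins, the spindle forms and kinetochores attach to its microtubules. Unattached kinetochores generate the checkpoint signal, which holds back CDC20 and the anaphase-promoting complex until every chromosome is attached. The complex then marks securin and cyclin B for destruction, the chromosomes separate and the cell divides. Transcripts of these genes are low in resting cells and peak in G2 and mitosis. Many of their promoters are controlled through CCAAT boxes, which NF-Y binds, and through the cell cycle genes homology region (CHR), which MuvB complexes bind together with repressors in resting cells and with MYBL2 or FOXM1 in dividing cells. RNA from a whole dish cannot tell a smaller share of cells in mitosis from less RNA per mitotic cell, and all levels below are log2 signals relative to the other transcripts on the array.

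The letters of these elements could be read in RefSeq promoter windows (GRCh38.p14, 250 bases before to 50 bases after a transcript start), which were present for 39 of the 46 measured genes. The windows were searched on both strands for CCAAT (which reads as ATTGG on the other strand) and for the CHR letters TTTGAA (which read as TTCAAA on the other strand) and their variant TTCGAA (which reads alike on both strands). The 2 sets of letters differ, although matches can abut. The windows below run from 120 bases before to 20 bases after the start, are printed 5′ to 3′ along the gene and have both elements in capitals. The first set shows 5 genes with large falls after 5 nM actinomycin D, chosen because their CHR lies just upstream of the start. KIF20B, which fell further than KIF11 and ANLN, has its CHR letters after the start and is not printed.
HMMR (chr5:163460512-163460651, plus strand): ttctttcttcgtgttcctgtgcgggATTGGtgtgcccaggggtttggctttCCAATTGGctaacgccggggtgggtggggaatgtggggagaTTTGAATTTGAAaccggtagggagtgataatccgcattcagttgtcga
ANLN (chr7:36389742-36389881, plus strand): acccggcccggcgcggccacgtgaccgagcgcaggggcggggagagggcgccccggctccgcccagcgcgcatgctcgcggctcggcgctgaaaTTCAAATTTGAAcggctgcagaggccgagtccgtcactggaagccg
BUB1B (chr15:40160949-40161088, plus strand): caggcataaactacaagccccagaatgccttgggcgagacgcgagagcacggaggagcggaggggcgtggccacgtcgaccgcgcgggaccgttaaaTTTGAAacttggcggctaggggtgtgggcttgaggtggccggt
KIF11 (chr10:92593010-92593149, plus strand): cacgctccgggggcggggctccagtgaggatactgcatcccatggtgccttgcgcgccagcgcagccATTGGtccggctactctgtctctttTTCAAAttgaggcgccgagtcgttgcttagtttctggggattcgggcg
KIF15 (chr3:44761674-44761813, plus strand): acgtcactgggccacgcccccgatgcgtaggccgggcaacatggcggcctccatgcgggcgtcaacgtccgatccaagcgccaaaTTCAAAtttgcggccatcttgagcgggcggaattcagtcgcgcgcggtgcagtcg

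The second set shows 4 genes that rose at 5 nM, 2 of which, CDC20 and CCNB1, were chosen after their values were seen and turn negative when arrays are centred on ribosomal protein genes. Both sets carry matches, and the windows of KIF20A, NEK2 and CCNB1 hold CCAAT boxes without the CHR letters searched for. Other variants of the CHR were not searched. CDCA8, MAD2L1 and NUF2 also rose at 5 nM, turn negative with that centring and hold CHR letters, but are not printed. The printed windows are thus a selection and do not show how often either element goes with a fall or a rise.
KIF20A (chr5:138178992-138179131, plus strand): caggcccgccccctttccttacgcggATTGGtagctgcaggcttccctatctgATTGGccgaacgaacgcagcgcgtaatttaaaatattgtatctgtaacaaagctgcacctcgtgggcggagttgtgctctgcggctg
NEK2 (chr1:211675602-211675741, minus strand): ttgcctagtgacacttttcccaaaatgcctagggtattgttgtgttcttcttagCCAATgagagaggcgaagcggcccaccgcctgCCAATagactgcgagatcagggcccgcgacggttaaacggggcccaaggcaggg
CDC20 (chr1:43358861-43359000, plus strand): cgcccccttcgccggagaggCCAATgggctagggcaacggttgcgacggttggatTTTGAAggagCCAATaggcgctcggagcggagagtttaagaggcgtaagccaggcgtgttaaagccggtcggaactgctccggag
CCNB1 (chr5:69167030-69167169, plus strand): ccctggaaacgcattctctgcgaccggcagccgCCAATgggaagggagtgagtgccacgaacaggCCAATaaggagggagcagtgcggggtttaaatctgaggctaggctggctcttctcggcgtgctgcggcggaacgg

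A CCAAT match was present in a window of 32 of the 39 genes (82.1%), against 42.2% of 14230 genes with a window. A CHR match was present in 30 (76.9%), against 17.4% of all genes. Both were present in 25 (64.1%), against 8.90%. Counted by window, 34.5% of 20100 windows held CCAAT and 13.6% held CHR letters. Of the 25 genes that fell at 5 nM actinomycin D and have a window, 20 held CCAAT and 22 held CHR. Of the 8 that rose, 7 held CCAAT and 4 held CHR. In the 32 genes with a single window the middle CCAAT match began 75 bases upstream of the start (57 matches in 25 genes) and the middle CHR match 22.5 bases upstream (34 matches in 25 genes). CENPE and KIF2C had neither element in the window. These matches are descriptions of the letters, and no binding was measured on them here.

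**Figure D1:**
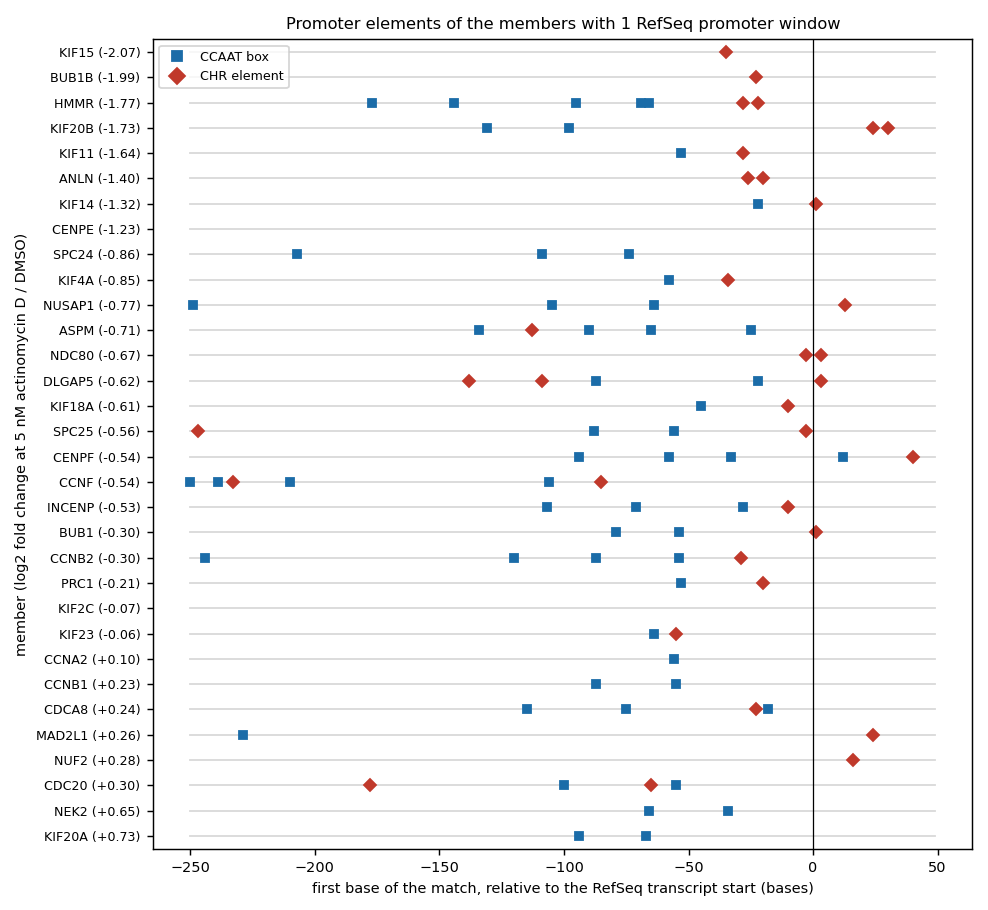
Position of CCAAT (squares) and CHR (diamonds) matches in the 32 genes with 1 RefSeq window, in bases from the transcript start, with genes ordered from the largest fall to the largest rise at 5 nM actinomycin D relative to DMSO (log2 fold change in brackets). Over the 32 genes the middle CCAAT match lies 75 bases upstream and the middle CHR match 22.5 bases upstream. Not every gene has both elements in this order. Among genes that rose, KIF20A, NEK2 and CCNB1 have no CHR match and NUF2 has no CCAAT match. MAD2L1, which also rose, has CCAAT 229 bases upstream and CHR letters after the start. Among genes that fell, ANLN, BUB1B, KIF15 and NDC80 have no CCAAT match, SPC24 has no CHR match and CENPE has neither. CDC20 has CHR matches 178 and 65 bases upstream and CCAAT matches 100 and 55 bases upstream. Of the genes that rose, CCNB1, CDC20, CDCA8, MAD2L1 and NUF2 turn negative when arrays are centred on ribosomal protein genes.

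Before the comparisons, the arrays were checked. FLI1 itself had log2 signals of 7.30 and 7.08 on the FLI1 shRNA arrays, against 8.63 and 8.45 on the lacZ shRNA arrays, a fall of 1.35 ± 0.09 (standard error, adjusted p = 5.39e-06). It also fell at 50 nM actinomycin D, by 0.95 ± 0.09. Of 5 listed Ewing sarcoma markers 4 were measured, and NR0B1 was not. CD99, STEAP1, NKX2-2 and FLI1 averaged 12.1, 10.9, 9.24 and 8.20. STEAP1 had 10.16 and 10.32 with FLI1 shRNA, against 11.26 and 11.23 with lacZ shRNA. NKX2-2 had 8.43 and 8.48, against 9.82 and 9.80. At 50 nM NKX2-2 had 7.52 and 7.72, against 9.85 and 9.81 with DMSO, below the epithelial marker KRT14 at 50 nM (7.86 and 8.03). The 14 blood, epithelial and endothelial markers averaged 3.68 to 7.65. Among these 14 the endothelial receptor KDR had 7.33 and 7.37 on the FLI1 shRNA arrays, against 5.42 and 5.59 on the lacZ shRNA arrays, a rise of 1.85, while PECAM1 fell by 0.55 and KRT19 by 0.37 and the other 11 did not pass. The mean over the 14 was 5.57 to 5.62 with FLI1 shRNA, against 5.46 to 5.69 with lacZ shRNA, and 5.72 to 5.76 at 5 nM and 5.71 to 5.73 at 50 nM, against 5.41 to 5.58 with DMSO, with 4 of them called higher at 5 nM and 5 at 50 nM. Their part in the results below was not tested. Replicate arrays correlated at 0.995 to 0.998 over all genes, and the gap between replicates over the 46 genes had a median of 0.04 to 0.10 log2 units and reached 0.34 in the 5 nM group. A gene is called lower or higher below where its limma adjusted p is under 0.05 over all 18404 genes. Genes with values on every array were chosen for the largest changes past this test. That their groups do not overlap follows largely from this choice and adds no support. The share of all genes whose groups do not overlap was not counted.

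Mitotic genes were lower after FLI1 shRNA than after lacZ shRNA, by small amounts. Of the 46 genes 23 fell, against 9.28% of all genes tested, and 0 rose, against 14.6%, while 23 did not pass the test. At an unadjusted p under 0.05, 32 genes were lower and 1 higher, and the share of all genes past this threshold was not counted. The median change was -0.26, against -0.01 over all genes. On the probe sets used, 0 genes passed a 2-fold change at an adjusted p under 0.01, and the share of all genes past it was not counted. Another probe set of WEE1, which does not enter these counts, had a change of -1.03 (limma adjusted p = 0.0054). All 6 checkpoint genes had negative values and 4 of them fell. Of the kinetochore genes 4 of 6 fell, of the passenger complex 3 of 4, of the kinesins 5 of 10, of CDK1, cyclins and regulators 3 of 8, of spindle and cytokinesis genes 3 of 10, and of PTTG1 and UBE2C 1 of 2. The count depended on single arrays: it was 11 without FLI1 shRNA replicate 1, 15 without FLI1 shRNA replicate 2, 10 without lacZ shRNA replicate 1 and 16 without lacZ shRNA replicate 2.

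The largest fall was that of SPC25, a subunit of the NDC80 complex that grips microtubule ends, with 8.41 and 8.54 on the FLI1 shRNA arrays, against 9.32 and 9.20 on the lacZ shRNA arrays. The change of -0.79 ± 0.11 left 58.0% of the lacZ level (adjusted p = 0.000382). Its partners in the complex moved less: NDC80 fell by 0.36, NUF2 fell by 0.29, and SPC24 had a change of -0.04 that did not pass. KIF2C, a kinesin that takes microtubules apart at kinetochores, had 9.29 and 9.34 with FLI1 shRNA, against 9.94 and 10.01 with lacZ shRNA, and fell by 0.66 ± 0.08 (adjusted p = 0.000172). KIF15, a kinesin that helps to keep spindle poles apart, had 8.04 and 8.18, against 8.79 and 8.68 with lacZ shRNA, and fell by 0.62 ± 0.09 (adjusted p = 0.000715). In both kinesins the 2 groups did not overlap, which their choice among the largest falls makes likely.

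The checkpoint genes MAD2L1 and BUB1B followed. MAD2L1, which captures CDC20, had 9.25 and 9.24 with FLI1 shRNA, against 9.80 and 9.78 with lacZ shRNA, and fell by 0.54 ± 0.07 (adjusted p = 0.000385). BUB1B, which blocks the anaphase-promoting complex together with MAD2L1, had 10.70 and 10.65, against 11.19 and 11.20, and fell by 0.52 ± 0.08 (adjusted p = 0.000622). CDK1, the kinase that starts mitosis, had 9.30 and 9.38, against 9.88 and 9.84, and fell by 0.52 ± 0.07 (adjusted p = 0.000357). In each of these genes replicates lay within 0.1 of each other. The groups did not overlap, which the choice of these genes makes likely. The partners of CDK1 differed: its cyclin CCNA2 fell by 0.48, whereas CCNB1 had a change of -0.08 and CCNB2 of -0.10, neither past the test. CDC20, the target of the checkpoint, had a change of -0.0044 and AURKA, the spindle pole kinase, one of -0.06.

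**Figure D2:**
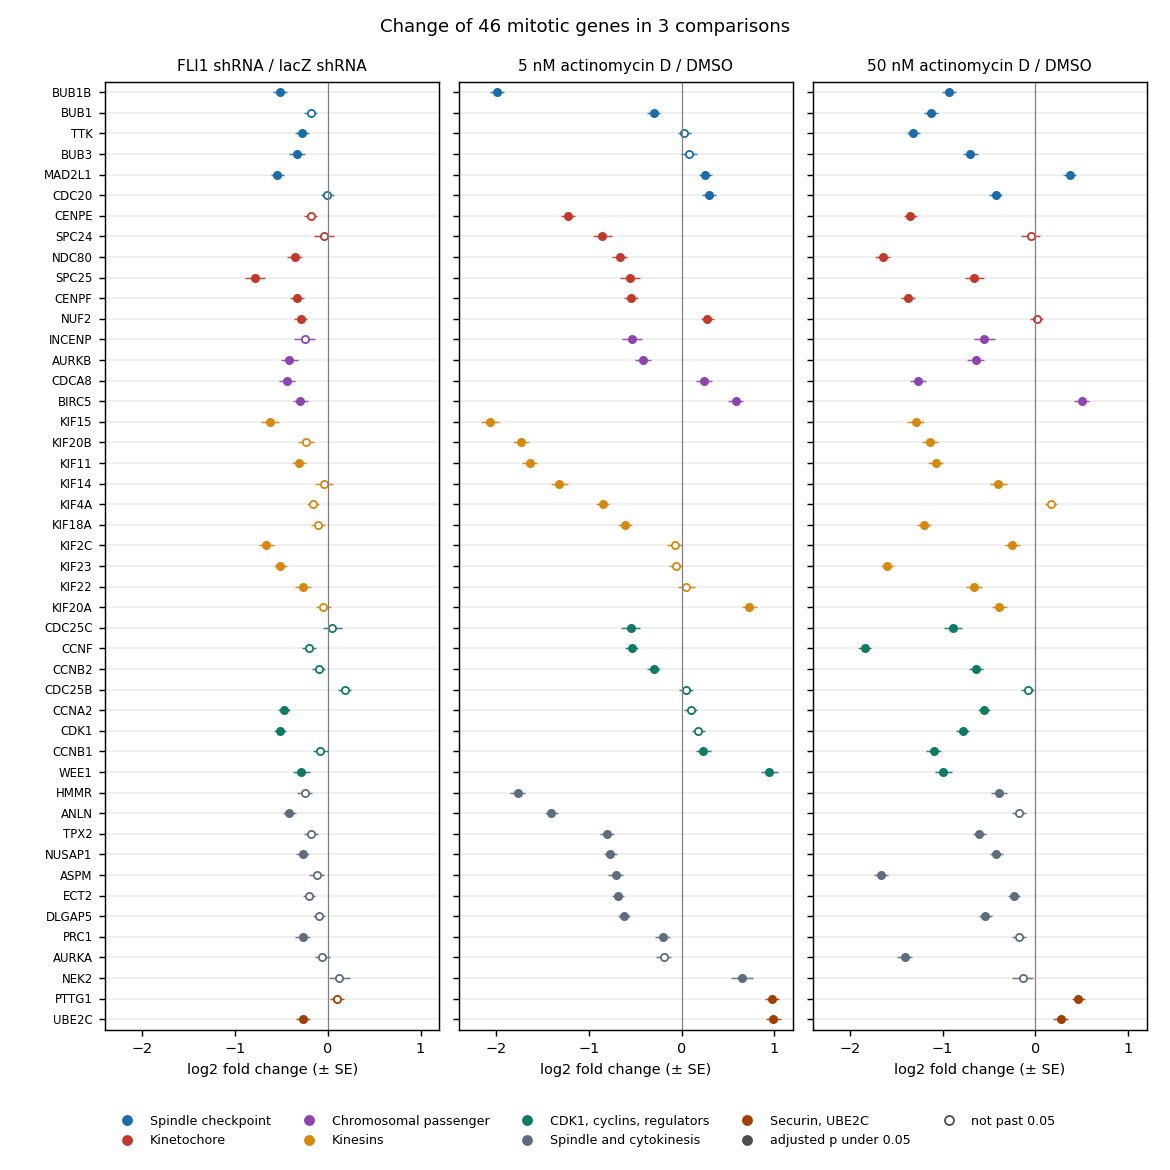
Log2 fold change with its standard error of the 46 genes after FLI1 shRNA relative to lacZ shRNA and after 5 nM and 50 nM actinomycin D relative to DMSO, by role and, within a role, by the change at 5 nM. Filled points have an adjusted p under 0.05. Points lie mostly just below 0 after FLI1 shRNA, spread from -2.07 to 0.99 at 5 nM and reach -1.84 at 50 nM, and the smaller rises at 5 nM (CCNB1, CDC20, CDCA8, MAD2L1 and NUF2) and that of UBE2C at 50 nM change sign when arrays are centred on ribosomal protein genes.

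At 5 nM actinomycin D the genes moved in both directions, and further. Relative to DMSO 26 of 46 fell, against 23% of all genes, 11 rose, against 30.3%, and 9 did not pass. Past a 2-fold change at an adjusted p under 0.01 there were 8 falls, against 7.86% of all genes, and 0 rises, against 2.64%. The median change was -0.36, against 0.12 over all genes. The mean over 64 ribosomal protein genes was 11.37 to 11.45 on the 5 nM arrays, against 11.03 to 11.07 on the DMSO arrays, and centring on them moved every value by -0.36 at 5 nM. It left 35 falls and 6 rises, and the median of the 46 genes became -0.72, against -0.24 over all genes.

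Falls and rises divided most of the complexes. Of the spindle and cytokinesis genes 8 of 10 fell and 1 rose, of the kinetochore genes 5 of 6 fell and 1 rose, and of the kinesins 6 of 10 fell and 1 rose. The checkpoint genes split into 2 falls (BUB1B and BUB1), 2 rises (CDC20 and MAD2L1, each of which has a negative value after ribosomal protein centring) and 2 that did not pass (TTK and BUB3). In the passenger complex the kinase AURKB fell by 0.42 and its scaffold INCENP fell by 0.53, whereas survivin, BIRC5, rose by 0.59 and borealin, CDCA8, by 0.24, or -0.12 with ribosomal protein centring. Securin, PTTG1, and the ubiquitin-conjugating enzyme of the anaphase-promoting complex, UBE2C, both rose.

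The kinesin KIF15 fell furthest, with 7.11 and 6.97 at 5 nM, against 9.09 and 9.12 with DMSO. The change of -2.07 ± 0.09 left 23.9% of the DMSO level (adjusted p = 2.75e-08). BUB1B had 9.36 and 9.18 at 5 nM, against 11.29 and 11.24 with DMSO, and fell by 1.99 ± 0.08 to 25.1% (adjusted p = 1e-08). HMMR, a microtubule-binding protein of the spindle that was first described as a hyaluronan receptor, had 8.19 and 7.97, against 9.86 and 9.83, and fell by 1.77 ± 0.08 (adjusted p = 3.68e-08). For each of them the drug arrays lay more than 1 log2 unit below both DMSO arrays. KIF20B, a kinesin of late cytokinesis, had 8.00 and 7.78 at 5 nM, against 9.69 and 9.55 with DMSO, and fell by 1.73 ± 0.09 (adjusted p = 5.62e-08). KIF11, which pushes the spindle poles apart, had 9.18 and 8.99, against 10.71 and 10.72, and fell by 1.64 ± 0.08 (adjusted p = 3.76e-08). Anillin, ANLN, which organizes the contractile ring, had 10.08 and 9.94, against 11.43 and 11.40, and fell by 1.40 ± 0.07 (adjusted p = 7.68e-08). The groups did not overlap in any of these genes, which their choice as the largest falls makes likely. Over the 46 genes replicate 1 of the 5 nM group averaged 0.11 above replicate 2.

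Among the rises UBE2C had 10.38 and 10.42 at 5 nM, against 9.45 and 9.37 with DMSO, a change of 0.99 ± 0.08 that brought it to 199% of the DMSO level (adjusted p = 1.29e-06). PTTG1 had 10.62 and 10.56, against 9.64 and 9.58, a change of 0.98 ± 0.07 (adjusted p = 1.06e-06). WEE1, the kinase that holds CDK1 inactive, had 9.71 and 9.56, against 8.77 and 8.60, a change of 0.95 ± 0.09 (adjusted p = 7.46e-06). The drug arrays lay above both DMSO arrays in all of these genes, which their choice as the largest rises makes likely. KIF20A, a kinesin of the central spindle, had 11.97 and 12.11, against 11.39 and 11.22, a change of 0.73 ± 0.08 (adjusted p = 2.17e-05). NEK2, a kinase that splits the centrosomes, had 10.92 and 10.65, against 10.26 and 10.00, a change of 0.65 ± 0.12 (adjusted p = 0.000656), with the widest replicate gaps of the 6. BIRC5 had 10.40 and 10.31, against 9.77 and 9.77, a change of 0.59 ± 0.08 (adjusted p = 0.000103). All 6 kept a positive value with an adjusted p under 0.05 after ribosomal protein centring.

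**Figure D3:**
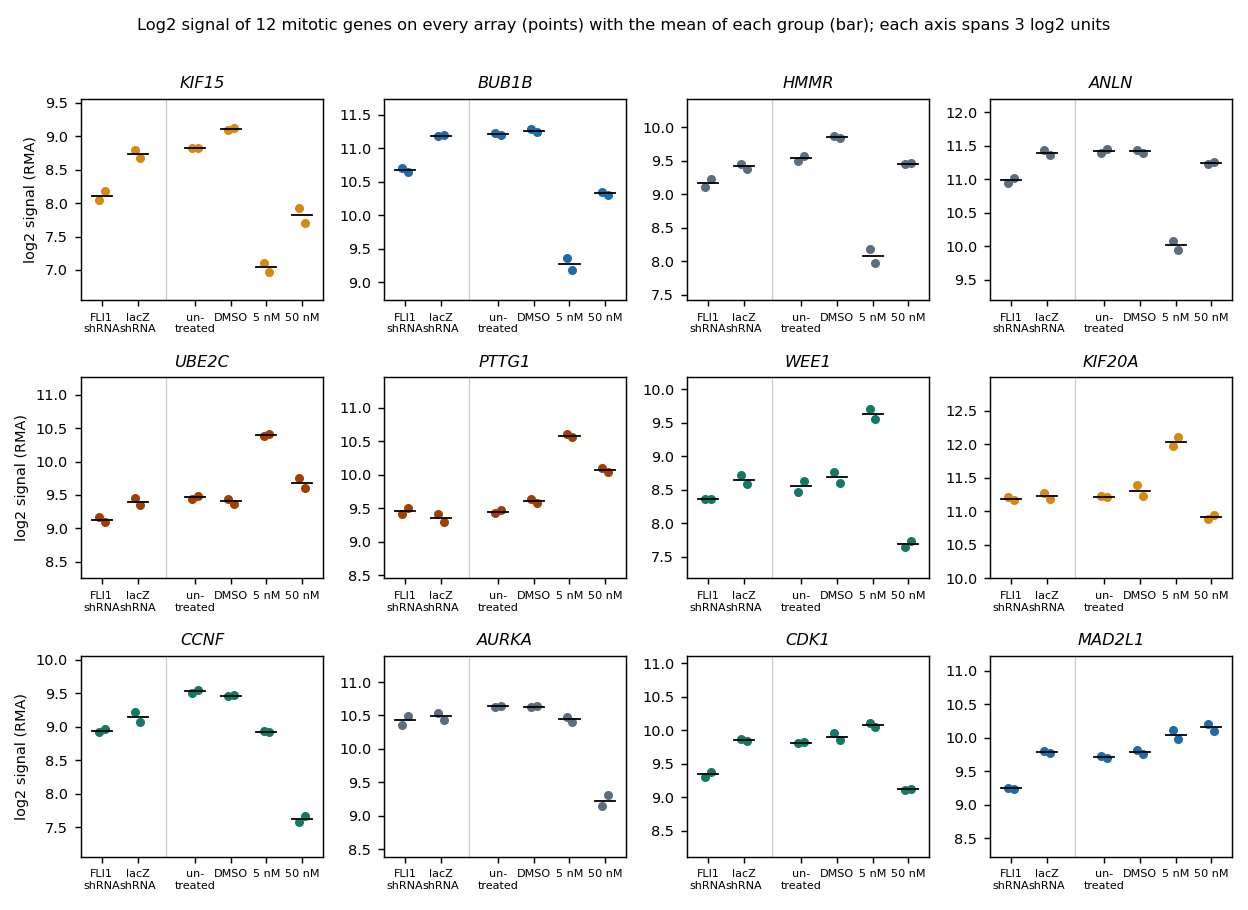
Log2 signal of 12 genes on each array (points) and the mean of each group (bar), with the shRNA groups left of the grey line and untreated, DMSO, 5 nM and 50 nM right of it. KIF15, BUB1B, HMMR and ANLN are lowest at 5 nM, UBE2C, PTTG1, WEE1 and KIF20A are highest there, and CCNF, AURKA and CDK1 are lowest at 50 nM. MAD2L1 lies highest at 50 nM, where its difference from DMSO does not pass the test with ribosomal protein centring.

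The change at 5 nM went with the length of the gene. Gene spans, from the first to the last annotated base in RefSeq (GRCh38.p14), ran from 4.22 kb (CDC20) to 131 kb (KIF4A) with a median of 29.3 kb. The 26 genes that fell had a median span of 56.6 kb and the 11 that rose, 5 of which turn negative with ribosomal protein centring, one of 11.2 kb. All 18 genes longer than 40 kb fell, with a median of -0.79. Of the 18 genes shorter than 20 kb 10 rose and 3 fell, with a median of 0.24. Genes over the whole array with a mean log2 signal over 8 showed the same order, with medians of -0.68 for 3092 genes over 40 kb and 0.33 for 2770 genes under 20 kb. The shift of ribosomal protein centring at 5 nM, -0.36, is near the 0.33 in size and opposite in sign. Whether that centring takes off a rise that goes with short span was not tested. Spearman's correlation of span with the change at 5 nM was -0.79 over the 46 genes and -0.71 over 7447 genes, given as a description because all points come from the same 4 arrays. The same correlation over the 46 genes was -0.35 at 50 nM and 0.36 for DMSO against untreated cells, which both share the DMSO arrays. It was 0.23 for lacZ shRNA against untreated cells and -0.03 for FLI1 shRNA. Genes that depart from the order include SPC24 (10.3 kb, -0.86) and AURKB (5.84 kb, -0.42) among the short genes, both chosen after their values were seen. HMMR, at 31.3 kb, fell further than all but KIF15 and BUB1B.

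**Figure D4:**
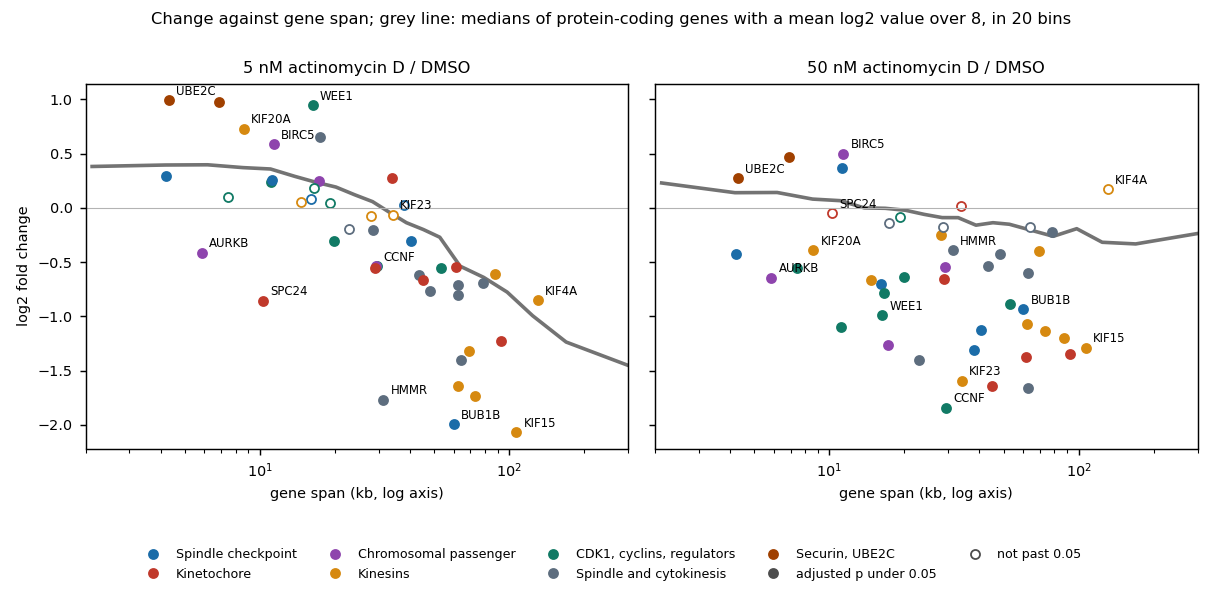
Log2 fold change against gene span in kb on a log axis for the 46 genes (points, filled where the adjusted p is under 0.05) at 5 nM and 50 nM actinomycin D relative to DMSO, with the medians of genes of like span on the whole array as a grey line. At 5 nM the points and the line descend together, to values of -0.79 and -0.68 in the middle of genes over 40 kb, whereas at 50 nM most points lie below the line at every span. The rises of the smaller risers at 5 nM and of UBE2C at 50 nM change sign with ribosomal protein centring.

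At 50 nM actinomycin D the falls spread over most of the genes. Relative to DMSO 35 of 46 fell, against 23.3% of all genes, 4 rose, against 25.8%, and 7 did not pass. Past a 2-fold change at an adjusted p under 0.01 there were 15 falls, against 5.38% of all genes, and 0 rises, against 0.598%. The median was -0.64, against 0.10 over all genes, and with ribosomal protein centring, which moved every value by -0.28, it was -0.93 with 41 falls and 1 rise. Of the kinesins 9 of 10 fell, of CDK1, cyclins and regulators 7 of 8, of the checkpoint genes 5 of 6, of the spindle and cytokinesis genes 7 of 10, of the passenger complex 3 of 4 and of the kinetochore genes 4 of 6. Genes under 20 kb took part: 11 of 18 fell, with a median of -0.49, against 0.09 for genes of that span on the whole array.

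Cyclin F, CCNF, the substrate receptor of a ubiquitin ligase active in G2, fell furthest, with 7.58 and 7.67 at 50 nM, against 9.47 and 9.47 with DMSO. The change of -1.84 ± 0.07 left 27.9% of the DMSO level (adjusted p = 5.89e-08). ASPM, a protein of the spindle poles, had 8.82 and 8.91, against 10.57 and 10.49, and fell by 1.66 ± 0.08 (adjusted p = 1.1e-07). NDC80 had 8.60 and 8.47, against 10.10 and 10.26, and fell by 1.65 ± 0.08 (adjusted p = 1.51e-07). All drug arrays of these genes lay more than 1 log2 unit below DMSO. KIF23, the kinesin of the centralspindlin complex, had 9.65 and 9.76 at 50 nM, against 11.26 and 11.34 with DMSO, and fell by 1.60 ± 0.07 (adjusted p = 7.79e-08). AURKA had 9.15 and 9.31, against 10.63 and 10.63, and fell by 1.41 ± 0.08 (adjusted p = 3.65e-07). CENPF, a large protein of the outer kinetochore, had 9.93 and 9.95, against 11.36 and 11.27, and fell by 1.38 ± 0.08 (adjusted p = 3.01e-07). The groups were again fully apart, which the choice of these genes as the largest falls makes likely.

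BIRC5, PTTG1, MAD2L1 and UBE2C were higher at 50 nM than with DMSO, the last with a negative value after ribosomal protein centring. BIRC5 had 10.26 and 10.27, against 9.77 and 9.77 with DMSO, a change of 0.50 ± 0.08 (adjusted p = 0.000506), and it alone passed the test after ribosomal protein centring. A second, dim probe set of BIRC5, below the 40th percentile of signal, had a change of 0.22 at 50 nM that did not pass (adjusted p = 0.093) and one of 0.81 at 5 nM. PTTG1 had 10.11 and 10.04, against 9.64 and 9.58, a change of 0.46 ± 0.07 (adjusted p = 0.000471), or 0.18 after centring. MAD2L1 had 10.21 and 10.10, against 9.81 and 9.76, a change of 0.37 ± 0.07 (adjusted p = 0.00203), or 0.09 after centring. UBE2C had 9.75 and 9.61, against 9.45 and 9.37, a change of 0.27 ± 0.08 (adjusted p = 0.0138), or -0.01 after centring. The arrays at 50 nM lay above both DMSO arrays in each of them, which their choice as rises past the test makes likely.

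The direct contrast of the doses gave 24 genes lower at 50 nM than at 5 nM, against 23.1% of all genes, 12 higher, against 21.6%, and 10 that did not pass. Past a 2-fold change at an adjusted p under 0.01 there were 8 lower, against 6.65%, and 4 higher, against 4.33%. CDK1, its cyclins and regulators ran one way, with 7 of 8 lower and 0 higher. WEE1 was lower at 50 nM by a change of -1.94 ± 0.09 on its brightest probe set, CCNB1 by -1.33 ± 0.08, CCNF by -1.30 ± 0.07 and CDK1 by -0.96 ± 0.07. The kinesins divided, with 4 lower (KIF23 at -1.53, KIF20A at -1.12, KIF22 and KIF18A) and 5 higher (KIF4A at 1.02, KIF14 at 0.92, KIF15 at 0.78, KIF20B and KIF11). The higher genes with more than 2-fold were HMMR at 1.38 ± 0.08, ANLN at 1.23 ± 0.07, BUB1B at 1.06 ± 0.08 and KIF4A. With the mean over the probe sets of a gene, WEE1 (-0.28, adjusted p = 0.171) and KIF22 (-0.11, adjusted p = 0.444) no longer passed in this contrast. All values named here kept their direction with ribosomal protein centring, which moved this contrast by 0.08.

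Genes lower at 50 nM than at 5 nM and genes higher at 50 nM sat side by side among checkpoint, kinetochore and cytokinesis genes. The mean log2 signal of BUB1B was 11.26 with DMSO, 9.27 at 5 nM and 10.33 at 50 nM, while that of TTK, a checkpoint kinase upstream of it, was 10.08, 10.11 and 8.77. SPC24 had means of 9.50, 8.64 and 9.45, and its partner NDC80 had 10.18, 9.51 and 8.53. ANLN stood at 11.41, 10.01 and 11.24, and KIF23, which also acts in cytokinesis, at 11.30, 11.23 and 9.70. TTK and KIF23 had no passing change at 5 nM and ANLN and SPC24 none at 50 nM, but with ribosomal protein centring all passed, TTK at -0.33 and KIF23 at -0.43 at 5 nM and ANLN at -0.46 and SPC24 at -0.34 at 50 nM.

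Not every probe set of a gene moved the same way at 50 nM. The WEE1 value used here, from its brightest probe set, fell by 0.99, whereas 2 other probe sets annotated to WEE1 had changes of 1.03 and 0.91 at 50 nM and of 0.29 and 0.57 at 5 nM. The mean over the 3 probe sets was 0.32 at 50 nM (adjusted p = 0.114). Between the doses these 2 probe sets were at 0.74 (adjusted p = 0.0145) and 0.34 (adjusted p = 0.173) at 50 nM relative to 5 nM, against -1.94 on the brightest. KIF22, a kinesin on chromosome arms, fell by 0.66 on its brighter probe set and had 0.53 on the other (adjusted p = 0.041). After FLI1 shRNA all probe sets of WEE1, KIF22 and BIRC5 had negative values. For WEE1 they were -0.29 on the brightest probe set, which gives its calls in the main fit, and -1.03 and -0.72 on the other 2.

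FLI1 shRNA and 5 nM actinomycin D share no arrays, and their changes were compared directly as a difference of responses, FLI1 shRNA minus lacZ shRNA less 5 nM minus DMSO. This difference was negative and passed the test in 17 genes, against 23.7% of all genes, was positive and passed in 18, against 22.8%, and did not pass in 11. With ribosomal protein centring, which moved it by 0.38, 7 were negative and passed and 27 were positive and passed. HMMR had the largest positive difference (1.52 ± 0.12), having changed by -0.25 after FLI1 shRNA and by -1.77 at 5 nM, followed by KIF20B (1.50 ± 0.12) and BUB1B (1.48 ± 0.11). UBE2C had the largest negative one (-1.26 ± 0.11), having changed by -0.27 after FLI1 shRNA and by 0.99 at 5 nM, followed by WEE1 (-1.23 ± 0.13). Of the 46 genes 10 fell in both comparisons, among them KIF15, BUB1B, KIF11 and ANLN. A further 16 fell at 5 nM and did not pass after FLI1 shRNA, and 7 fell after FLI1 shRNA and did not pass at 5 nM. The share of all genes with each pair of calls was not counted, so these counts do not show a shared response. Another 6 fell after FLI1 shRNA and were higher at 5 nM: UBE2C, WEE1 and BIRC5, and MAD2L1, NUF2 and CDCA8, whose 5 nM values turn negative with ribosomal protein centring. The FLI1 shRNA calls of UBE2C and WEE1 were lost when any of the 4 shRNA arrays was left out, that of BIRC5 with FLI1 shRNA replicate 1 or either lacZ shRNA array left out, and that of NUF2 without replicate 1 of either group. When only the arrays compared were fitted, BIRC5 (adjusted p = 0.0743) and UBE2C (adjusted p = 0.0561) did not pass. Pearson's correlation of both changes over the 46 genes was 0.20 and Spearman's 0.07, as a description of genes measured on the same 8 arrays.

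**Figure D5:**
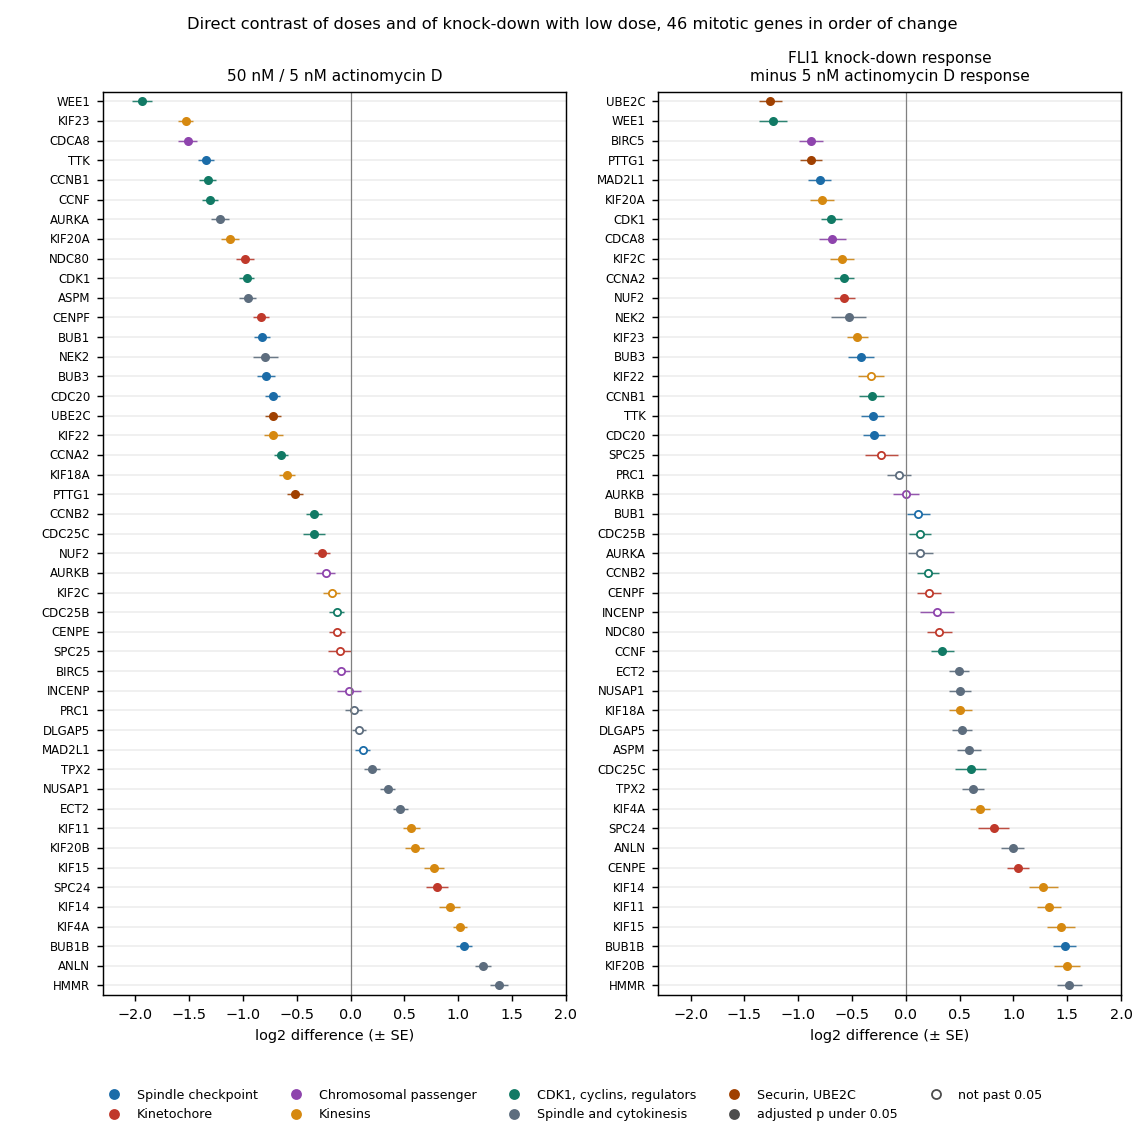
Log2 difference with its standard error for each of the 46 genes, ordered by size, between 50 nM and 5 nM actinomycin D (left) and between the FLI1 shRNA response and the 5 nM response (right), coloured by role and filled where the adjusted p is under 0.05. The left panel runs from -1.94 (the brightest probe set of WEE1, whose call is lost with the mean over its probe sets) to 1.38 (HMMR) and the right panel from -1.26 (UBE2C) to 1.52 (HMMR), where CCNB1, CDC20 and TTK change sign with ribosomal protein centring.

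The control conditions differed little. DMSO for 24 h against untreated cells gave 0 lower genes, against 0% of all genes, and 0 higher, against 0.00543%, by limma, with values from -0.17 to 0.31. At an unadjusted p under 0.05, 0 genes were lower and 10 higher, and the share of all genes past this threshold was not counted. After lacZ shRNA 2 genes were lower than in untreated cells, against 2.26% of all genes, and 0 were higher, against 0.815%. These were SPC24, with 8.98 and 8.93 on the lacZ arrays, against 9.38 and 9.49 on the untreated arrays (-0.48 ± 0.10, adjusted p = 0.0369), and CCNF, with 9.22 and 9.07, against 9.51 and 9.55 (-0.39 ± 0.07, adjusted p = 0.0243). Both calls were lost when any of the 4 arrays concerned was left out. Virus, selection and time in culture cannot be told apart in this comparison.

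Other genes of the pathway were counted for context, beside 9.28% of all genes lower and 14.6% higher after FLI1 shRNA, 23% and 30.3% at 5 nM and 23.3% and 25.8% at 50 nM. Of 33 further kinetochore and checkpoint genes 19 fell after FLI1 shRNA and 0 rose, with ZWINT (-0.70) and DSN1 (-0.68), both of the outer kinetochore, lowest. At 5 nM 17 fell, led by CENPI (-2.24) and KNTC1 (-2.06), and 9 rose, led by CENPW (0.79). At 50 nM 19 fell, led by HJURP, the chaperone of centromeric histone (-1.52), and 3 rose, led by CENPW (1.30). Of 29 further spindle and cytokinesis genes 13 fell after FLI1 shRNA, 12 fell and 6 rose at 5 nM, and 22 fell and 2 rose at 50 nM, where FAM83D (-1.67) and the motor KIFC1 (-1.60) were lowest. FAM83D also led the falls after FLI1 shRNA (-0.81). Of 17 genes of the anaphase-promoting complex and its regulators 8 fell and 4 rose at 5 nM, and 8 fell and 5 rose at 50 nM. After FLI1 shRNA 2 of the 17 fell, a share of 11.8% that is near the 9.28% of all genes, namely FBXO5, which inhibits the complex (-0.81), and ANAPC7 (-0.37). FBXO5 rose by 0.93 at 5 nM and fell by 1.76 at 50 nM.

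Of 18 condensin and cohesin genes, whose products shape and hold sister chromatids, 11 fell after FLI1 shRNA and 0 rose. At 5 nM 14 fell, led by the cohesin regulator PDS5B (-2.58) and the cohesin subunit STAG1 (-2.31), and 2 rose, led by sororin, CDCA5 (1.02). At 50 nM 12 fell and 0 rose. Among 10 regulators of G2 and M transcription 4 fell and 1 rose after FLI1 shRNA, with LIN9 of the MuvB complex at -0.44 and LIN37 at 0.37. At 5 nM 6 fell, led by the NF-Y subunit NFYC (-1.13) and by LIN54 (-1.08), which contacts the CHR. In the same comparison 2 rose, led by LIN37 (0.69). The other NF-Y subunits, NFYA and NFYB, had means of 10.60 and 7.75 at 5 nM, against 10.23 and 7.51 with DMSO. At 50 nM 4 fell and 0 rose. For comparison with an earlier stage of the cycle, the 46 mitotic genes had a median of -0.26 after FLI1 shRNA, against -0.68 over 20 genes of DNA replication, 19 of which fell, led by the helicase subunits MCM4 (-1.11) and MCM6 (-0.98). At 50 nM the order was the other way, with a median of -0.64 over the mitotic genes, against -0.15 over the replication genes, 8 of which fell. The differences between these lists were not tested, and the counts at 5 nM and 50 nM are those before ribosomal protein centring.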

How the data were processed

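The authors deposited log2 signals of Affymetrix HuGene 1.0 ST arrays, which they had made by background correction and RMA in the R package affy (version not given in the sources used here), and these were used as deposited. RMA gives arrays a like distribution, so only levels relative to other transcripts are seen. Of 32321 rows 19158 name 1 gene and 1388 several. Each of 18404 genes was represented by its probe set of highest mean over all 12 arrays. Changes were fitted on all 12 arrays with limma 3.58.1 in R 4.3.3 (group means, contrasts, moderated by eBayes, 6 residual and 4.45 prior degrees of freedom) and adjusted by Benjamini-Hochberg over all genes within each of 7 comparisons. The fit was tested on simulated data. With 2 arrays a group no permutation test can pass 0.05, and the number of arrays limits the precision.

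Members and lists were chosen with earlier results of these data known. Values on every array are given for the 6 largest falls and rises past an adjusted p of 0.05 after FLI1 shRNA, 5 nM and 50 nM; the 2 largest of each direction may be named from the other lists. Spans and promoter windows come from RefSeq (GRCh38.p14). The alternatives were a replicate block, a fit of only the arrays compared, eBayes with a trend and robust prior, arrays centred on 64 ribosomal protein genes, genes below the 40th percentile left out, the mean over probe sets, and each array left out.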

Additional observations from a re-analysis of the deposited data

How the results depend on the processing

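The counts of mitotic genes at 5 nM and 50 nM kept their order of falls over rises under every alternative run. After FLI1 shRNA the count of falls was 23, and 10 to 16 with single arrays left out. It was 21 with the replicate number as a block, 29 with trend and robust estimation and 29 with dim genes left out, where 1 gene also rose. With arrays centred on ribosomal protein genes, 6 genes rose at 5 nM and 1 at 50 nM, and the difference of responses passed as negative in 7 and as positive in 27, against 17 and 18 without it. At 5 nM the same centring turned CCNB1 (-0.13), CDC20 (-0.065), CDCA8 (-0.12), MAD2L1 (-0.10) and NUF2 (-0.083), at 50 nM UBE2C (-0.012), and in the difference of responses CCNB1 (0.066), CDC20 (0.084) and TTK (0.073). The mean over probe sets turned WEE1 at 50 nM (0.32), since 2 of its 3 probe sets are higher there, and took away the calls of WEE1 (-0.28) and KIF22 (-0.11) in the contrast of doses and of KIF22 (-0.067) at 50 nM. For lacZ shRNA against untreated cells the count of 2 became 1 with the replicate block, 0 with only the arrays compared, and 0 with any array left out. Fitting only the arrays compared, PRC1, CCNB1, CDCA8 and MAD2L1 lost their call at 5 nM, BIRC5 and UBE2C after FLI1 shRNA, CDC25C, NUF2 and TPX2 in the contrast of doses, and CCNB1 in the difference of responses.

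With single arrays left out, 13 genes lost their call after FLI1 shRNA in at least 1 of the fits (PRC1, KIF22, WEE1, NUSAP1 and UBE2C in all 4, and BUB3, CENPF, TTK, NUF2, BIRC5, KIF11, NDC80 and AURKB in some), 5 at 5 nM, 3 at 50 nM, 3 in the contrast of doses and 6 in the difference of responses, and 0 changed direction. The labels do not say whether replicate numbers pair the samples. The deviations of replicates correlated between groups at -0.45 to 0.34, and values of mixed sign cannot settle it. The replicate block took away the calls of KIF22 and WEE1 after FLI1 shRNA, PRC1 at 5 nM, TPX2 in the contrast of doses, SPC24 after lacZ shRNA and CCNB1 in the difference of responses. A lone array in a group was assumed to vary like the other groups. The probe sets that represent the 46 genes all lay above the 40th percentile, and among the values printed for these genes only those of the second BIRC5 probe set rest on one below it.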
